A study of Homo sapiens with 6 samples.

Results

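The Tribbles genes TRIB1, TRIB2 and TRIB3 encode pseudokinases, and they are the 3 genes described here, among 19775 genes that had a probe set of their own on the arrays. All probe sets annotated with only 1 of these 3 symbols were taken, which gave 7 of 54675 probe sets, namely 3 for TRIB1, 2 for TRIB2 and 2 for TRIB3. The values come from HCT116, an established human colon carcinoma line, transfected with miR-224 precursor molecules or with control oligos, each at 50 nM, and harvested after 24 h. Total RNA of 3 control and 3 miR-224 samples was hybridised to 1 Affymetrix array each, and the series describes them as pairs from 3 independent experiments. Both groups share the line, the medium, the transfection and the dose, and the level of miR-224 itself was not analysed here. The genes were chosen with values of this contrast known: TRIB2 had been seen among the genes with the highest differences, and TRIB1 is a reported miR-224 target. The contrast therefore gives a description of the 3 genes, with no test, and the tests below are on other genes. Precision is limited by there being 3 arrays a group.

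Tribbles proteins have the fold of a protein kinase but lack or nearly lack catalytic activity. They act as scaffolds: the pseudokinase domain holds a substrate, and a tail at the carboxyl end recruits the ubiquitin ligase COP1 and binds MAPK kinases. Through COP1, TRIB1 and TRIB2 lead to the degradation of C/EBP transcription factors, which is best known in myeloid leukaemia. TRIB2 is also known to restrain FOXO factors through AKT, and TRIB3 is induced by ATF4 and CHOP under amino acid or endoplasmic reticulum stress and can bind AKT. TRIB1 has been reported as a direct target of miR-224 in prostate cancer cells.

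A microRNA precursor can give a mature strand from either arm. The mature strands of human miR-224 are shown because they are what the treated cells received or could make. They are given 5′ to 3′ from RefSeq (GRCh38.p14), with the seed, bases 2 to 8, in capitals, and the labels do not say which arm the precursor was made to yield. The 5p strand has 25 bases (chrX:151958628-151958652, minus strand) and the 3p strand 23 (chrX:151958584-151958606, minus strand), and their seeds differ.
hsa-miR-224-5p: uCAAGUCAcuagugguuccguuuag
hsa-miR-224-3p: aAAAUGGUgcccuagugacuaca

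The arrays grouped by experiment, and experiment 1 stood apart. The control probe set at the 5′ end of actin differed by -8.11 in log2 signal between experiment 1 and experiments 2 and 3, while that at the 3′ end differed by 0.05. For GAPDH the differences were -8.90 at the 5′ end and -0.23 at the 3′ end. Both arrays of experiment 1 had this low 5′ signal, so it was shared by control and miR-224. Of 10 colon epithelial markers, 9 were at or above 3.48, the median log2 level of all probe sets, on every array, including EPCAM, KRT8, KRT18, CDH1 and CDX2, and 0 of 3 measured leukocyte markers were. Some markers of fibroblasts (3 of 5), endothelium (2 of 5) and hepatocytes (4 of 5) also passed this low bar, with mean levels of at most 5.96, 4.47 and 5.17, compared with up to 12.3 for the epithelial markers. The mean level of each list over its genes ranged from 3.82 to 4.02 in control and 3.90 to 4.10 in miR-224 arrays for fibroblasts, from 3.23 to 3.37 and 3.24 to 3.39 for endothelium, from 3.83 to 3.92 and 3.83 to 3.96 for hepatocytes, from 2.77 to 2.89 and 2.86 to 3.07 for leukocytes, and from 7.20 to 8.14 and 7.38 to 8.13 for the epithelium. Their part in the results was not tested.

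TRIB2 was the Tribbles gene with the highest difference, and its brighter probe set was higher in miR-224 cells in every experiment. TRIB1 was lower in every experiment on its brightest probe set, by less. TRIB3 differed by -0.03 on its brighter probe set, smaller in size than the standard error. Of the 7 probe sets, 1 was higher in all 3 experiments, 2 were lower in all 3 and 4 changed sign between experiments. Among all 54613 fitted probe sets, 16.5% were higher and 14.8% lower in all 3. For 2 of the 7 probe sets the groups did not overlap, 1 higher and 1 lower, which was the case for 4.02% and 2.64% of all probe sets. These counts use the contrast that served to choose the genes, so nothing is read from them.

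**Figure D1:**
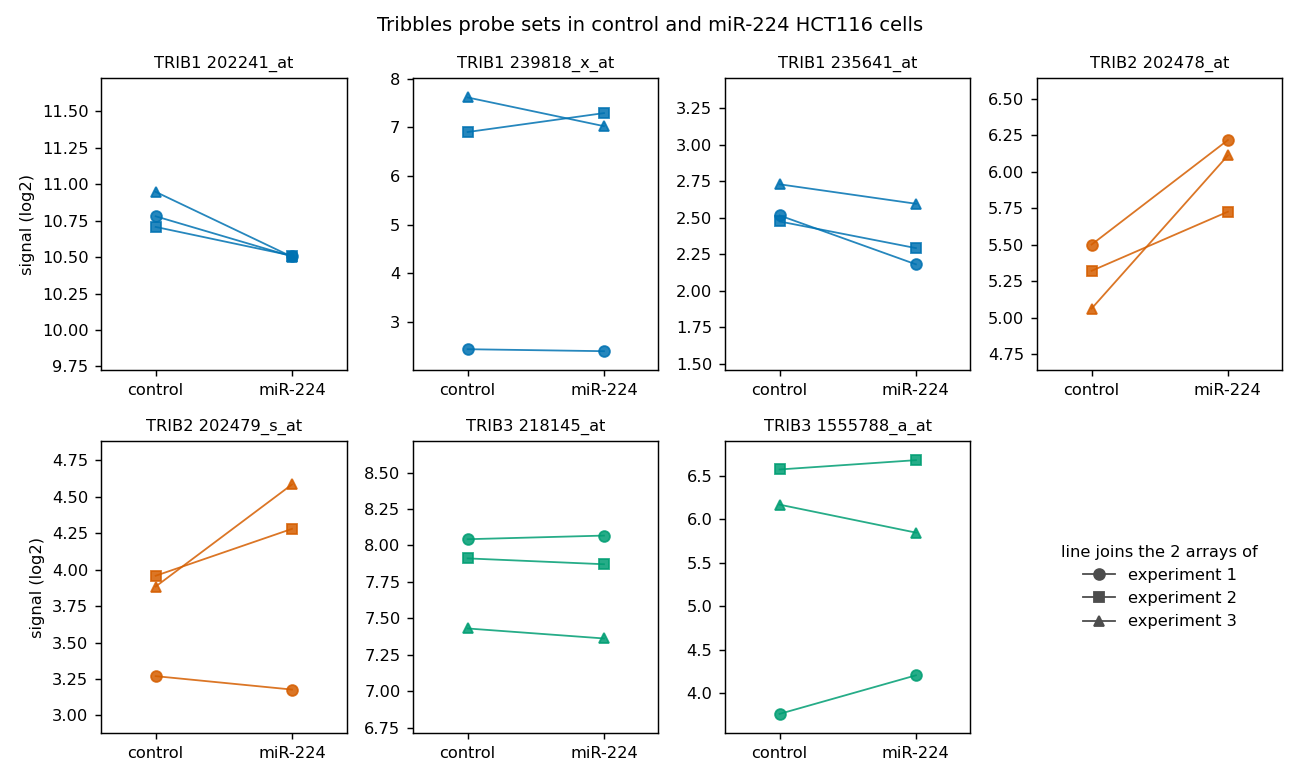
Log2 signal of the 7 Tribbles probe sets on the 6 arrays, with control at the left and miR-224 at the right of each panel; a line joins both arrays of an experiment, and each panel has its own log2 scale. TRIB2 202478_at rises along all 3 lines (5.06 to 5.50 in control, 5.73 to 6.22 in miR-224), TRIB1 202241_at falls along all 3 (10.7 to 10.9 in control, 10.5 on each miR-224 array), and the lines of TRIB3 218145_at are nearly level.

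TRIB2, whose protein joins COP1 to C/EBP-alpha and restrains FOXO3, was read by a brighter probe set (202478_at) and a dimmer one (202479_s_at). On the brighter probe set the log2 signal in control cells was 5.50, 5.32 and 5.06 in experiments 1, 2 and 3, and in miR-224 cells it was 6.22, 5.73 and 6.11. All 3 miR-224 arrays lay above all 3 control arrays. The means were 5.30 ± 0.22 in control and 6.02 ± 0.26 in miR-224 cells (SD, n = 3). The log2 difference of 0.72 ± 0.14 (SE of the paired fit) corresponds to a 1.65-fold higher signal. It was 0.72, 0.41 and 1.05 in experiments 1, 2 and 3, so that the amount was unequal though the sign was not. Of all fitted probe sets, 0.05% had a higher difference. TRIB2 had been seen among the genes with the highest differences before it was chosen, so nothing is read from this rank.

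The dimmer TRIB2 probe set gave a less even picture. Its log2 signal was 3.27, 3.96 and 3.88 in control cells of experiments 1, 2 and 3 and 3.18, 4.28 and 4.58 in miR-224 cells. The groups overlapped, and both arrays of experiment 1 were the lowest of their group. The difference was 0.31 ± 0.15 (SE), made up of -0.09, 0.32 and 0.70 in experiments 1, 2 and 3. It was 0.51 without experiment 1 and 0.11 without experiment 3. The mean of both probe sets differed by 0.52 ± 0.12 (SE). Between experiment 1 and the mean of experiments 2 and 3, this probe set differed by -0.65 among control and by -1.25 among miR-224 arrays, whereas the brighter one was higher in experiment 1 by 0.31 and 0.30.

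TRIB1, whose protein brings C/EBP-alpha to COP1, was brightest on 202241_at. The log2 signal in control cells was 10.8, 10.7 and 10.9 in experiments 1, 2 and 3, and in miR-224 cells it was 10.5 in each. All 3 miR-224 arrays lay below all 3 control arrays. The means were 10.8 ± 0.12 in control and 10.5 ± 0.0038 in miR-224 cells (SD, n = 3). The miR-224 arrays thus differed from each other far less than the control arrays did, and the unequal differences between experiments, -0.28, -0.20 and -0.45, followed the control levels. The log2 difference was -0.31 ± 0.11 (SE), a 1.24-fold higher signal in control cells, and 4.47% of all fitted probe sets had a lower one.

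Both other TRIB1 probe sets were less informative. The dim 235641_at, which lay below the median level of all probe sets, stood at 2.52, 2.47 and 2.73 in control cells of experiments 1, 2 and 3 and at 2.18, 2.29 and 2.60 in miR-224 cells. It was lower in each experiment, by differences of -0.34, -0.18 and -0.13, but the groups overlapped and the signal was near the bottom of the scale. The probe set 239818_x_at, whose suffix marks probes that may also match other transcripts, stood at 2.44, 6.91 and 7.62 in control cells and at 2.40, 7.30 and 7.03 in miR-224 cells. It differed by -0.04, 0.39 and -0.59 in experiments 1, 2 and 3, with a mean of -0.08 ± 0.17 (SE), and so gave no shared direction. Without experiment 3 its difference was 0.17 and without experiment 2 it was -0.32. The mean of all 3 TRIB1 probe sets differed by -0.20 ± 0.10 (SE).

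TRIB3, the stress-induced member, binds AKT and is raised by ATF4 and CHOP. On its brighter probe set (218145_at) the log2 signal was 8.04, 7.91 and 7.43 in control cells of experiments 1, 2 and 3 and 8.07, 7.87 and 7.36 in miR-224 cells. Each miR-224 array lay beside the control array of its own experiment, and the level in experiment 3 was the lowest in both groups. The differences were 0.02, -0.04 and -0.07, with a mean of -0.03 ± 0.10 (SE). The spread over experiments within a group (SD 0.32 in control and 0.36 in miR-224 cells, n = 3) was larger than the difference between groups.

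The other TRIB3 probe set, 1555788_a_at, stood at 3.76, 6.58 and 6.17 in control cells of experiments 1, 2 and 3 and at 4.20, 6.68 and 5.85 in miR-224 cells. The differences of 0.44, 0.11 and -0.32 had a mean of 0.08 ± 0.15 (SE) and no shared sign. The mean was -0.11 without experiment 1 and 0.28 without experiment 3. The mean of both TRIB3 probe sets differed by 0.02 ± 0.10 (SE), against -0.03 for the brighter one alone, so that the sign of TRIB3 depends on the probe set.

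**Figure D2:**
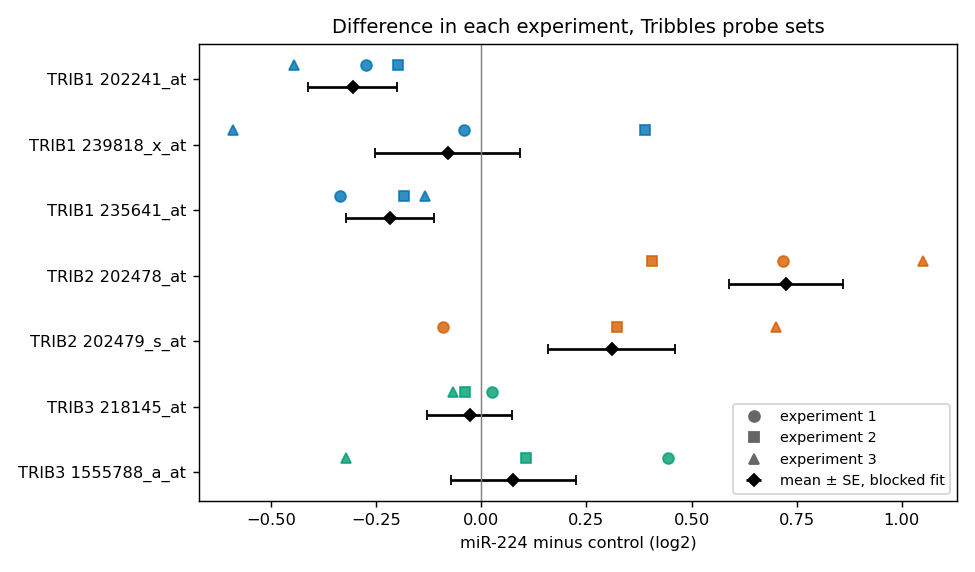
Log2 difference, miR-224 minus control, of each Tribbles probe set in experiments 1, 2 and 3 (coloured points) and the mean with the standard error of the paired fit (black diamonds). Only TRIB2 202478_at lies above 0 in all 3 experiments (0.41 to 1.05), TRIB1 202241_at and 235641_at lie below 0 in all 3, and the points of TRIB3 218145_at lie within 0.07 of 0.

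Within each gene, the probe sets differed in how they read experiment 1. Over both groups, TRIB1 239818_x_at was lower there than in experiments 2 and 3, with a log2 difference of -4.79, and so was TRIB3 1555788_a_at, with -2.34. Such a step of at least 2 log2 units was found in 1.73% of all probe sets and in 3.45% of those at or above the median level. The brightest probe sets of the 3 genes showed no such loss, with steps of -0.02 for TRIB1, 0.30 for TRIB2 and 0.41 for TRIB3. The step goes the same way as the 5′ control probe sets of actin and GAPDH, and whether position in the transcript accounts for it was not tested. It was shared by both groups, so differences within experiment 1 can be formed, but those of 239818_x_at rest on a log2 signal of about 2.4 there. TRIB2 202479_s_at stood at 3.27 in control and 3.18 in miR-224 cells of experiment 1, below the median level of 3.48. TRIB3 1555788_a_at stood at 3.76 and 4.20 there, not far above it.

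**Figure D3:**
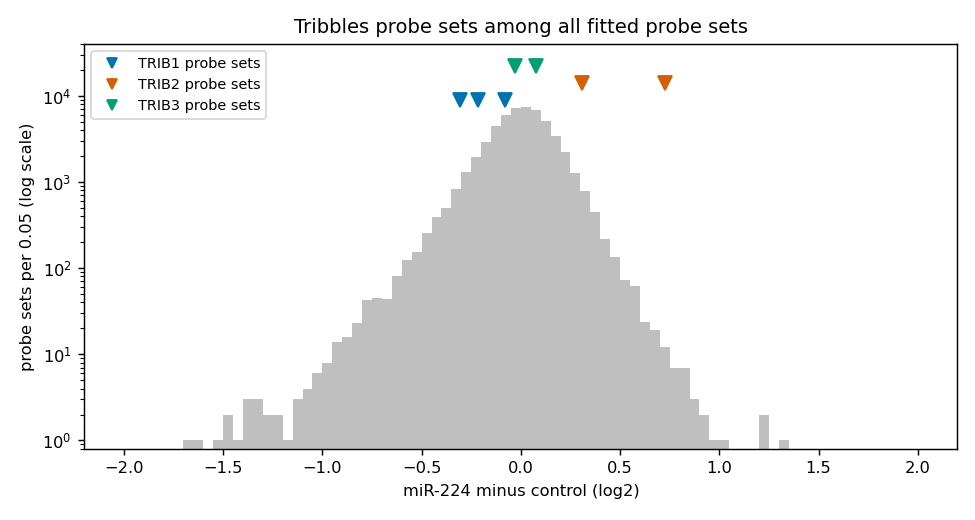
Number of probe sets (log scale) by log2 difference, miR-224 minus control, for all 54613 fitted probe sets, with triangles at the differences of the Tribbles probe sets; the height of a triangle only separates the genes. TRIB2 202478_at (0.72) lies in the upper tail, TRIB1 202241_at (-0.31) on the lower flank and both TRIB3 probe sets (-0.03 and 0.08) near the centre.

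Across all probe sets, limma's paired fit called 0 at a Benjamini-Hochberg adjusted p under 0.05 in either direction (0% higher, 0% lower). At an unadjusted p under 0.05 there were 5352 (9.8%). Without experiment 1 the same fit called 137, none of them the brightest probe set of a listed pathway gene. Other probe sets of these genes were not looked up among the 137. Without experiment 2 or experiment 3 the fit called 0. A fit with an experiment left out has 1 residual degree of freedom, so nothing is read from the 137. At an adjusted p under 0.1 there were 2, named here only because so few passed and so chosen on their values: a RARA probe set, of a retinoic acid receptor, was higher by 1.31 ± 0.11 (SE) and an NFATC2IP probe set differed by -1.22 ± 0.11 (limma adjusted p = 0.0721 for both). The calls for the pathway genes below are read against this background.

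The other genes of the Tribbles pathway were taken from 8 lists of 102 genes, of which 97 were measured, each by its brightest probe set. None rose or fell in limma's paired fit at an adjusted p under 0.05, against 0% of all 19775 genes. At an unadjusted p under 0.05, 5 were higher and 2 lower, which is 7 of 97 beside 5.05% of all genes higher and 5.19% lower. Their median log2 difference was -0.0055, and that of all genes 0.01. For 1 of the 97 the groups did not overlap upward and for 2 downward, beside 4.16% and 2.11% of all genes.

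**Figure D4:**
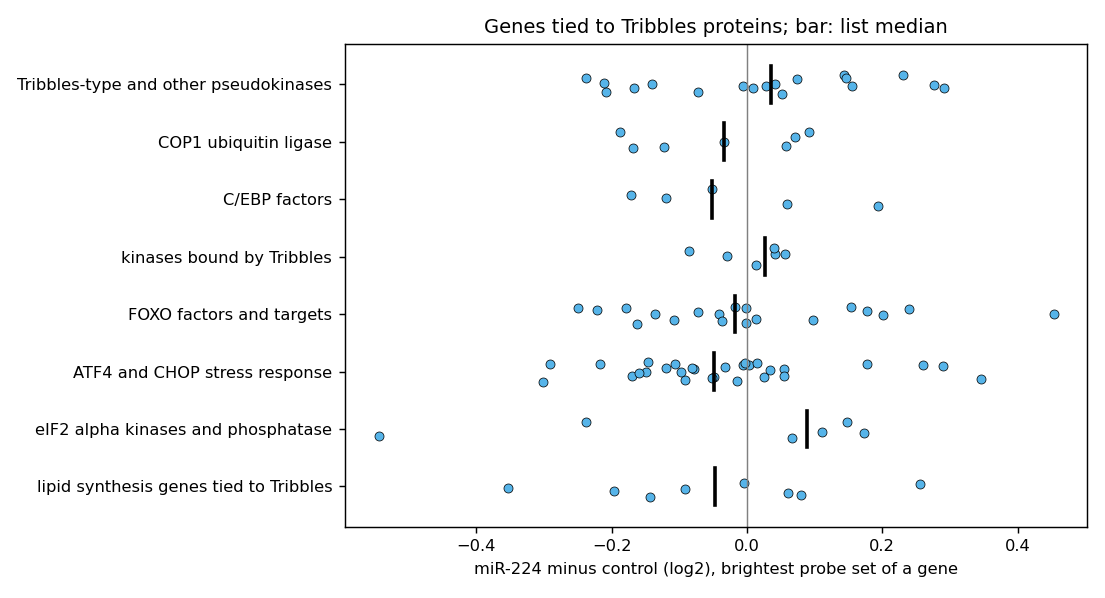
Log2 difference, miR-224 minus control, of the measured genes of 8 lists tied to Tribbles proteins (points, spread vertically only to separate them), with the median of each list as a black bar. Every list median lies between -0.05 and 0.09, and FOXO3 (0.45) and EIF2AK4 (-0.54) are the farthest points on each side.

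The COP1 ligase, which Tribbles proteins bring to their substrates, had 3 of 7 genes with a higher and 4 with a lower mean, beside 53.2% and 46.8% of all genes, and a median of -0.03. These shares of all genes are the background for the lists below too. COP1 itself stood at 7.20, 6.51 and 6.45 in control cells of experiments 1, 2 and 3 and at 7.05, 6.35 and 6.24 in miR-224 cells. Its differences were much alike, at -0.15, -0.15 and -0.21 in experiments 1, 2 and 3, and it did not pass (limma adjusted p = 0.634). Its other probe set differed by -0.28 ± 0.13 (SE). CUL4B, a cullin that can carry COP1 with DDB1 and DET1, differed by -0.19 ± 0.10 on its brightest probe set (limma adjusted p = 0.598). Its other probe sets, all above the median level, differed by 0.04, -0.21 and 0.05, and their average with the brightest by -0.08. DET1 differed by -0.12 ± 0.14.

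The C/EBP factors, which include the substrates of TRIB1 and TRIB2, had 2 of 5 genes with a higher and 3 with a lower mean, and a median of -0.05. CEBPA stood at 5.88, 5.84 and 5.82 in control cells and at 5.85, 5.55 and 5.64 in miR-224 cells, a difference of -0.17 ± 0.11 (limma adjusted p = 0.651). CEBPB differed by -0.12 ± 0.10, with -0.07, -0.13 and -0.16 in experiments 1, 2 and 3. CEBPE, a factor of granulocyte maturation, differed by 0.19 ± 0.12 at a low level, and CEBPD by 0.06 ± 0.10, or by -0.03 with its probe sets averaged. The arrays read transcripts, and the degradation of C/EBP proteins through COP1 cannot be seen in them.

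Kinases that bind Tribbles proteins had 4 of 6 measured genes with a higher and 2 with a lower mean, and a median of 0.03. MAP2K1, which encodes MEK1, differed by -0.03 ± 0.10 and AKT1 by 0.04 ± 0.11. MAP3K11, a mixed-lineage kinase, differed by -0.09 ± 0.12 and MAP2K4, a JNK pathway kinase, by 0.06 ± 0.13. The range of the list was -0.09 to 0.06, all within the standard errors of its members named here.

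TRIB2 is known to restrain FOXO factors through AKT, and that restraint was not measured here. FOXO factors and their targets had 7 of 19 genes with a higher and 12 with a lower mean. Among all genes the shares were 53.2% and 46.8%. The median of the list was -0.02. FOXO3 was the member with the highest difference. It stood at 8.12, 7.38 and 7.91 in control cells of experiments 1, 2 and 3 and at 8.62, 8.16 and 7.99 in miR-224 cells. The groups overlapped, and the gap was widest in experiment 2. Its difference of 0.45 ± 0.14 (SE) was 0.50, 0.78 and 0.08 in experiments 1, 2 and 3 and did not pass (limma adjusted p = 0.377). Its other probe sets at or above the median level differed by 0.27 ± 0.13 and 0.22 ± 0.15, and all its probe sets averaged by 0.26. On the brightest one the difference was 0.29 without experiment 2. BCL6, a repressor and FOXO target, differed by -0.25 ± 0.12 and the pocket protein gene RBL2 by -0.22 ± 0.13.

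The ATF4 and CHOP response, which induces TRIB3, had 10 of 29 genes with a higher and 19 with a lower mean. Among all genes the shares were 53.2% and 46.8%. The list median was -0.05. At an unadjusted p under 0.05 in limma's paired fit, 3 of the 29 were higher and 0 lower, beside 5.05% and 5.19% of all genes. ATF4 differed by -0.09 ± 0.11 and DDIT3, which encodes CHOP, by 0.18 ± 0.10, with 0.14, 0.27 and 0.12 in experiments 1, 2 and 3. GDF15, a secreted stress cytokine, differed by 0.26, 0.33 and 0.28 in experiments 1, 2 and 3, with a mean of 0.29 ± 0.10 (limma adjusted p = 0.416). Its level was lower in experiment 1 (7.08 in control cells) than in experiments 2 and 3 (9.48 and 10.5). Its dim probe sets differed by -0.12 and -0.02, and all its probe sets averaged by 0.05. SLC3A2, the heavy chain of amino acid transporters, differed by 0.35 ± 0.12 (limma adjusted p = 0.425). TRIB3 itself, a target of the same factors, differed by -0.03 on its brighter probe set.

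Upstream of ATF4, the eIF2-alpha kinases and related genes had 4 of 6 genes with a higher and 2 with a lower mean, and a median of 0.09. EIF2AK4, which encodes the amino acid sensor GCN2, stood at 7.36, 6.86 and 6.40 in control cells of experiments 1, 2 and 3 and at 7.10, 6.37 and 5.51 in miR-224 cells. It was lower in every experiment, by -0.26, -0.48 and -0.89, although the groups overlapped because its level differed between experiments. The difference of -0.54 ± 0.13 (SE) did not pass (limma adjusted p = 0.297). Its other probe set, below the median level, differed by 0.15 ± 0.17, and the average of both by -0.20, so the lower level rests on the brighter probe set. EIF2AK3, which encodes PERK, differed by -0.24 ± 0.15, and by -0.14 with its probe sets averaged.

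Lipid synthesis genes tied to Tribbles proteins had 3 of 8 genes with a higher and 5 with a lower mean, and a median of -0.05. ACACA, the acetyl-CoA carboxylase that TRIB3 and COP1 degrade, differed by -0.0042 ± 0.10. SREBF2, the regulator of cholesterol synthesis, differed by -0.35 ± 0.13 (limma adjusted p = 0.445), with -0.03, -0.64 and -0.40 in experiments 1, 2 and 3, and by -0.23 with its probe sets averaged. PPARG, an adipogenic nuclear receptor, differed by 0.26 ± 0.11 (limma adjusted p = 0.510).

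Other pseudokinases had 11 of 18 measured genes with a higher and 7 with a lower mean, and a median of 0.03. STK40, the nearest relative of the Tribbles family, differed by 0.04 ± 0.11, with 0.15, -0.09 and 0.07 in experiments 1, 2 and 3. PRAG1, a scaffold pseudokinase, differed by 0.29 ± 0.11 (limma adjusted p = 0.436) and the brightest probe set of VRK3 by -0.24 ± 0.12. Other VRK3 probe sets at or above the median level differed by -0.29, 0.07 and 0.12, and all its probe sets averaged by -0.03. With brightest probe sets only, the highest and lowest differences of the list were 0.29 and -0.24. The brighter TRIB2 probe set, at 0.72, lay outside this range, and TRIB1, at -0.31, lay just outside it. So did the further VRK3 probe set at -0.29. The Tribbles genes were chosen with values of this contrast known, so nothing is read from their place.

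The genes whose profile over the 6 arrays was most like that of each Tribbles gene were found by the Euclidean distance between log2 values, each probe set centred on its own mean, among 23208 probe sets of 1 gene at or above the median level. For TRIB1 these were ADAD2-AS1, ARHGAP27 and ABCA3, a lipid transporter, at distances of 0.11, 0.12 and 0.13, with differences of -0.24, -0.26 and -0.22. For TRIB2 they were TRAF3, an adaptor of TNF receptor signalling, RBM15B and the matrix gene FBLN1, at distances of 0.31, 0.39 and 0.40, with differences of 0.49, 0.60 and 0.58. With all probe sets of a gene averaged, TRAF3 differed by 0.15, RBM15B by 0.51 and FBLN1 by 0.09. For TRIB3 they were C1QBP, PSMA3, a proteasome subunit, and ETFA, at distances of 0.04, 0.10 and 0.11, with differences of -0.03, -0.09 and -0.08. The neighbours named for TRIB3 and for TRIB1 were thus closer than those for TRIB2. The distance is not scaled to the spread of a profile, and why it differed between genes was not tested. The neighbours were picked by closeness to the values of each Tribbles gene, so that their differences resemble its own follows from the rule. All profiles come from the same 6 arrays, and likeness over so few arrays is a description.

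**Figure D5:**
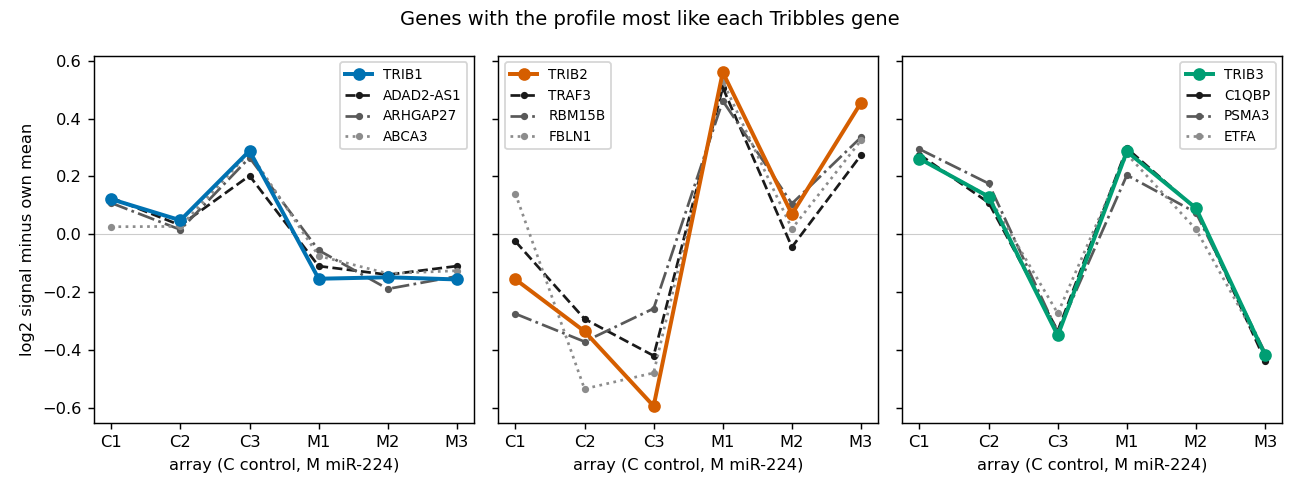
Log2 signal minus the probe set's own mean on the 3 control (C1 to C3) and 3 miR-224 arrays (M1 to M3), numbered by experiment, for the brightest probe set of each Tribbles gene (coloured) and its 3 most alike genes (grey); lines join arrays only to guide the eye. TRIB1 drops from control to miR-224, TRIB2 climbs, and TRIB3 falls from experiment 1 to experiment 3 in both groups.

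The promoters of TRIB2 and TRIB3 were searched for the binding cores of the factors whose lists are given above. The windows are those of RefSeq (GRCh38.p14), from 250 bases before to 50 after a transcript start, 300 bases in all, and both strands were read. The FOXO core TGTTTAC was found in the TRIB2 window, in 0 of 3 windows of TRIB3 and in 3.42% of all 35116 promoter windows. The composite element of ATF4 and C/EBP, searched as TGATGCAA, was found in neither gene's windows and in 0.866% of all windows. Only these exact letters were searched, so variants of an element or sites outside the windows would be missed. The match in TRIB2 is shown because it was the only match found in either gene. FOXO factors are listed above because TRIB2 restrains them, and control of TRIB2 by FOXO factors was not tested. The match lies at the far end of the window, in the first 60 bases (chr2:12716686-12716745, plus strand, 5′ to 3′, the match in capitals). A match of these letters is a description and does not show a bound site.
TRIB2 promoter, first 60 bases of the window: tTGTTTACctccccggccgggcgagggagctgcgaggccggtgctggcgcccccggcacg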

How the data were processed

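The deposited values are log2 expression values, 1 per probe set and array, which the authors made with RMA and Partek, per the submitters' processing notes; their versions and settings are unknown here. RMA usually gives base 2, which no source states; the values lay between 1.47 and 13.6. RMA scales arrays alike, so a shift shared by most genes cannot be seen. Gene names came from the array's annotation table (41097 with 1 symbol, 1801 with several, 11777 with none), and 62 control probe sets were left out.

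The 54613 others were fitted with limma 3.58.1 in R 4.3.3 (lmFit, eBayes, two-sided, Benjamini-Hochberg over all probe sets) with experiment as a block, since the series describes pairs; 2 residual degrees of freedom remain. Deviations from group means correlated across probe sets at 0.902, 0.734 and 0.783 between same-numbered arrays and at -0.777 to 0.474 otherwise. Simulated data of 54613 probe sets, 200 of them changed, had independent normal noise around the fitted levels of each experiment. On these the blocked fit recovered 34% of changes of 1 and 76% of changes of 2 on the log2 scale, with 0 false calls. Noise shared between probe sets was not simulated, so the false calls to expect on the real arrays are not known from it. Each probe set's noise took its own spread, estimated on 2 residual degrees of freedom, as exact. Recovery on the real arrays is thus not known from the simulation either. Members and lists were chosen with earlier results of these data known. Named are all Tribbles probe sets, their 3 most alike genes, 10 fixed pathway genes, and for each list the 2 further members of smallest p at or above the median level. Alternatives were the fit without the block, each experiment left out, other scalings, variances, filters and probe set choices. Figures were drawn with matplotlib 3.10.9.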

Additional observations from a re-analysis of the deposited data

How the results depend on the processing

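Each gene had 10 alternatives. Where these kept probe sets apart, TRIB2 202478_at stayed between 0.56 and 0.88 and TRIB1 202241_at between -0.36 and -0.24. Without the replicate block, their differences were the same 0.72 and -0.31, with standard errors of 0.18 and 0.10, and no call changed. The average of a gene's probe sets gave 0.52 for TRIB2 and -0.20 for TRIB1. For TRIB3 that average changed sign (0.024, against -0.03 for 218145_at alone). Leaving out single experiments gave -0.32 to 0.17 for TRIB1 239818_x_at and -0.11 to 0.28 for TRIB3 1555788_a_at, with a change of sign in both. The count of called probe sets, 0, was 28 with an intensity trend and robust variances and 2 at an adjusted p under 0.1. It was 0 to 137 with an experiment left out, 137 being the count without experiment 1, in fits with 1 residual degree of freedom. No pathway gene was called on its brightest probe set in any of these, and its other probe sets were not looked up. List medians near 0 changed sign. With an experiment left out they ran from -0.021 to 0.065 (pseudokinases), -0.18 to 0.014 (COP1 ligase), -0.13 to 0.051 (C/EBP), -0.063 to 0.053 (kinases), -0.086 to 0.036 (FOXO) and -0.13 to 0.042 (lipid genes). With a gene's probe sets averaged they were 0.010 (FOXO) and 0.0053 (lipid genes). The cause of these changes was not tested. Signal near background limits TRIB1 235641_at.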
